A study of Mus musculus with 7 samples.

Results

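The 9 genes described here are the apelin receptor gene Aplnr, its ligand gene Apln and 7 genes that mark endothelial cells, the cells that line blood vessels. They were chosen by symbol, and all 9 were measured among the 22180 genes of the arrays. Expression was measured on 1-colour arrays in uninjured digits of C57Bl/6 mice (n = 4) and in blastemas harvested from mice of that strain 2 weeks after amputation (n = 3). The labels give no age, sex, transgene or other treatment for either group. They name the samples of a group as separate biological replicates. A blastema is the mass of cells that forms at an amputated digit tip and from which the lost part regrows. Each level is a log2 value of a probe set, so a difference of 1 is a doubling, and levels of different genes are not compared because each has its own probes. The tissue labels were compared with marker lists. The lists were chosen with earlier results of these data known, so this is no independent check. All 5 measured epidermal markers and all 5 measured bone markers had a group mean above the background proxy of 5.52, which is the 95th percentile of the levels of 1105 olfactory receptor genes. All 5 bone markers rose in the blastema (median log2 fold change 3.44, led by Ibsp, 5.73 ± 0.64 SE). Of the epidermal markers 2 fell (Lor, -0.87 ± 0.13, and Ivl, -0.58 ± 0.12), and 1 in 5 of the 7 omissions of 1 array.

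Apelin is a small secreted peptide. It binds the apelin receptor, a G protein-coupled receptor found on endothelial cells during vessel growth, and sprouting tip cells are a known source of the peptide. VE-cadherin (Cdh5), CD31 (Pecam1) and ESAM (Esam) hold endothelial cells together at their junctions. Endomucin (Emcn) is a mucin of capillary and venous endothelium, von Willebrand factor (Vwf) is a blood clotting protein stored in endothelial cells and platelets, Tie1 is an orphan receptor tyrosine kinase that modulates angiopoietin signalling, and Egfl7 is a matrix protein secreted by endothelial cells. In bone, vessels rich in CD31 and endomucin lie close to sites of bone formation.

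Promoter sequence from RefSeq (GRCm38.p6) was found for 4 of the 9 genes. These do not include Aplnr and Cdh5, the only 2 of the 9 that passed the test described below. The stretches shown are the 250 bases before the annotated start of Emcn, Tie1 and Apln, whose blastema levels all lay above the uninjured ones, and of the first of 3 annotated starts of Egfl7, whose levels did not part by group. They are written 5′ to 3′ on the strand of the gene. Capitals mark GGAAG on either strand, a form of the core of sites bound by ETS factors, a family that includes the endothelial factors Erg and Fli1. Other forms of that core are not marked or counted.

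Emcn, chr3:137340828-137341077, plus strand: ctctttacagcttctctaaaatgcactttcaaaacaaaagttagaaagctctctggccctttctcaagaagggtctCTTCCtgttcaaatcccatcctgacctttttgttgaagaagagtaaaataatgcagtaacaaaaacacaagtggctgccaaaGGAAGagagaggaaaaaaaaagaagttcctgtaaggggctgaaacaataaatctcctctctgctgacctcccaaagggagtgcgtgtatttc

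Tie1, chr4:118489850-118490099, minus strand: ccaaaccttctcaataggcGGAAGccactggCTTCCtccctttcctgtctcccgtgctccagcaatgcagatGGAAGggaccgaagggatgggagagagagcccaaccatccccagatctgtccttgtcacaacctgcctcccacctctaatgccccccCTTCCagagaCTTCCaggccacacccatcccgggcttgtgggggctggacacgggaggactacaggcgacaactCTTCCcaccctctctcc

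Apln, chrX:48034854-48035103, minus strand: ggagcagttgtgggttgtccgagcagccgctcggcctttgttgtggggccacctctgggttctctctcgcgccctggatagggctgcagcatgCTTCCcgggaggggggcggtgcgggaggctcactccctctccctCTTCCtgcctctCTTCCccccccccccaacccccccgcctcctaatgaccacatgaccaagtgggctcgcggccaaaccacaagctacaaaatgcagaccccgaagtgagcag

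Egfl7, chr2:26580833-26581082, plus strand: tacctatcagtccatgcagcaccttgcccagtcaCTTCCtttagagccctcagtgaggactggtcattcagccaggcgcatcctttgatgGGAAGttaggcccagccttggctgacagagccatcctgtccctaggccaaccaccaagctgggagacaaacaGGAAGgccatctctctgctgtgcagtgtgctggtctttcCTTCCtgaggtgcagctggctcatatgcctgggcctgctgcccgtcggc

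GGAAG occurred 6 times before Tie1, 4 times before the first start of Egfl7, 3 times before Apln and 2 times before Emcn. Before starts 2 and 3 of Egfl7 it occurred 2 and 0 times. It was present in 5 of the 6 windows of these 4 genes, and in 64.1% of 32851 windows of the same length before all annotated starts. The SOX core ACAAT, also searched on both strands, was found in 1 of the 6 windows, that of Emcn, and in 27.7% of all windows. The FOX core TGTTT was found in 3 of the 6 and in 46.4% of all. The GATA motif AGATAA was found in 0 of the 6 and in 9.99% of all. These are matches of letters.

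Aplnr and Cdh5 rose in the blastema by the test over all genes, and the other 7 genes did not pass it. Of the 9 genes, 2 rose (4.98% of all 22180 genes did) and 0 fell (4.66% of all). Both rises were at least 2-fold, and 1.53% of all genes rose by as much. The test was limma with Benjamini-Hochberg adjustment over all genes. For 5 genes, Aplnr, Cdh5, Emcn, Apln and Tie1, every blastema value lay above every uninjured value, which held for 10.4% of all genes. The median log2 fold change of the 9 was 0.68, against -0.01 over all genes. In these whole-tissue samples, the number of endothelial cells, RNA per cell and the make-up of the rest of the tissue cannot be told apart.

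**Figure D1:**
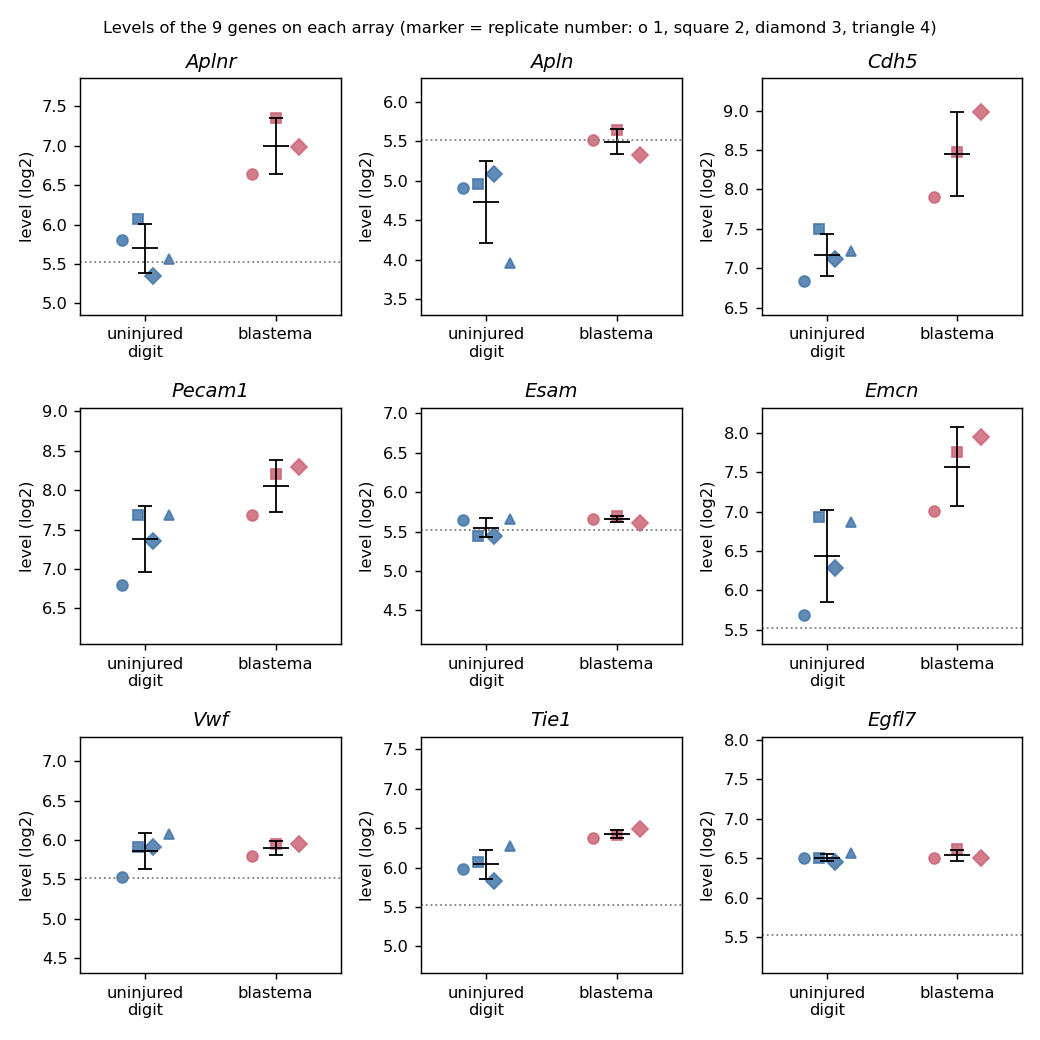
Log2 level of each of the 9 genes on each array, uninjured digit in blue (n = 4) and blastema in red (n = 3). Bars are mean and SD, the marker shape gives the replicate number, the dotted line is the background proxy of 5.52, and each panel spans 3 log2 units. The red points of Aplnr, Apln, Cdh5, Emcn and Tie1 all lie above the blue ones. Those of Vwf lie among the blue ones, and those of Esam and Egfl7 overlap them.

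The apelin receptor gene showed the largest difference of the 9 genes in the fit of all 7 arrays. Aplnr lay at 5.81, 6.07, 5.35 and 5.56 on uninjured arrays 1 to 4 and at 6.65, 7.36 and 6.98 on blastema arrays 1 to 3. The groups were 0.58 apart at their nearest values, and 1 uninjured array was under the background proxy. The uninjured mean was 5.70 ± 0.31 (SD, n = 4) and the blastema mean 6.99 ± 0.36 (SD, n = 3). Aplnr rose by 1.30 ± 0.21 (SE) on the log2 scale, which is 2.46-fold (limma adjusted p = 0.0119, 95% interval 0.80 to 1.80). Without blastema array 3 the change was 1.31 and did not pass (adjusted p = 0.0578). It passed in each of the other 6 omissions of 1 array.

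Apln, the gene of the ligand, was near or under the background proxy. Its levels were 4.91, 4.96, 5.09 and 3.95 on uninjured arrays 1 to 4 and 5.51, 5.65 and 5.33 on blastema arrays 1 to 3. All blastema values were higher, but only 1 of the 7 arrays, blastema array 2, exceeded the proxy. The difference was 0.77 ± 0.27 (SE), with a 95% interval of 0.14 to 1.40, and did not pass (limma adjusted p = 0.126). Uninjured array 4 was far below the others. Without it the difference was smaller, 0.51, and passed (adjusted p = 0.0443).

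Other genes of apelin signalling came from a list of receptor partners, peptide-processing enzymes and the second ligand of the receptor. Of the 8 on the arrays 2 rose (4.98% of all genes did), 0 fell and the median was 0.00. Mme, the gene of neprilysin, a membrane peptidase that cleaves apelin among other peptides, rose by 1.54 ± 0.23 (SE, limma adjusted p = 0.00883). Gnai2, an inhibitory G protein subunit of wide expression, rose by 0.76 ± 0.10 (adjusted p = 0.00672). Apela, the other ligand gene, lay at 3.76 to 4.22 on all 7 arrays, under the background proxy. Both rises passed in every omission of 1 array, and 1 gene of the list passed as lower without uninjured array 1.

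VE-cadherin, the defining adhesion molecule of endothelial junctions, rose about as much as the receptor. Cdh5 lay at 6.84, 7.50, 7.12 and 7.22 on uninjured arrays 1 to 4 and at 7.90, 8.47 and 8.98 on blastema arrays 1 to 3. The blastema arrays differed more among themselves than the uninjured ones, and all stayed at least 0.41 above the highest uninjured value. The means were 7.17 ± 0.27 (SD, n = 4) and 8.45 ± 0.54 (SD, n = 3). Cdh5 rose by 1.28 ± 0.26 (SE) on the log2 scale, which is 2.43-fold (limma adjusted p = 0.0235, 95% interval 0.68 to 1.88). This call held in 2 of the 7 omissions of 1 array, those of uninjured array 2 and blastema array 1. Omitting uninjured array 1 (adjusted p = 0.0553), uninjured array 3 (0.0728), uninjured array 4 (0.0654), blastema array 2 (0.0903) or blastema array 3 (0.0716) ended it, with log2 fold changes of 1.02 to 1.56 over all 7 omissions.

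The other junction genes of the 9 did not pass. Pecam1 lay at 6.80, 7.68, 7.35 and 7.68 on uninjured arrays 1 to 4 and at 7.68, 8.20 and 8.29 on blastema arrays 1 to 3. The groups touched, since uninjured arrays 2 and 4 and blastema array 1 held the identical value. The difference was 0.68 ± 0.25 (SE), with a 95% interval of 0.10 to 1.26 (limma adjusted p = 0.141). Without both arrays numbered 1 the difference was nearly the same, 0.68, and passed (adjusted p = 0.0422). Esam lay at 5.44 to 5.66 in uninjured digits and 5.61 to 5.70 in blastemas, close to the proxy, with a difference of 0.11 (-0.08 to 0.29, adjusted p = 0.451).

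Among genes whose products bind cadherins or lie at cell junctions, 1 of 11 measured rose (4.98% of all genes did) and 0 fell (median 0.08). The gene that rose was Ptprm, a receptor tyrosine phosphatase of cell contacts (1.38 ± 0.26 SE, limma adjusted p = 0.0199). Its call was lost when uninjured array 3 (0.0566), blastema array 2 (0.0801) or blastema array 3 (0.0884) was omitted. F11r, the gene of the junctional adhesion molecule JAM-A, had every blastema value below every uninjured value and did not pass (-0.48 ± 0.13, 0.0694). In the list 1 gene passed as lower without uninjured array 1, and also with the level filter, the background proxy filter, array weights and median scaling. A pair of the catenin genes, whose products link cadherins to the cytoskeleton in many cell types, had nearly equal group means: Ctnnb1 lay at 10.33 in both groups and Ctnnd1 at 8.48 in both. F11r and these catenins were picked out once their values were known. The list is not specific to endothelium, since epidermis uses many of its members.

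Emcn had the widest spread within a group of the 9 genes. Its levels were 5.69, 6.93, 6.28 and 6.87 on uninjured arrays 1 to 4 and 7.01, 7.76 and 7.95 on blastema arrays 1 to 3. The lowest blastema value was 0.07 above the highest uninjured value, and uninjured array 1 was well below the others. The difference of 1.13 ± 0.35 (SE), with a 95% interval of 0.31 to 1.95, did not pass (limma adjusted p = 0.0956). Without both arrays numbered 1 it was 1.16 and passed (adjusted p = 0.0478). Omitting any 1 array gave 0.88 to 1.41 and no call.

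Tie1 had a small difference and little spread. It lay at 5.98, 6.07, 5.83 and 6.27 on uninjured arrays 1 to 4 and at 6.38, 6.41 and 6.48 on blastema arrays 1 to 3. The blastema arrays lay close together and above all uninjured arrays. The difference was 0.38 ± 0.11 (SE, 0.14 to 0.63) and did not pass (limma adjusted p = 0.0668). It passed without uninjured array 4 (0.46, adjusted p = 0.0339).

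Vwf and Egfl7 had the smallest differences of the 9 in the fit of all arrays, and neither passed. Vwf lay at 5.53, 5.92, 5.92 and 6.08 on uninjured arrays 1 to 4 and at 5.80, 5.95 and 5.95 on blastema arrays 1 to 3. The blastema values lay inside the uninjured range. The difference was 0.04 (95% interval -0.26 to 0.34, limma adjusted p = 0.886). In probe signal, this interval lies below the changes of Aplnr and Cdh5. It reflects only the spread between arrays. The signal of Vwf was low, with uninjured array 1 just above the background proxy, and uninjured arrays 2 and 3 held the same value. Whether low signal hid a larger change in Vwf RNA was not tested. Egfl7 lay between 6.46 and 6.62 on all 7 arrays, with a difference of 0.03 (-0.11 to 0.18, adjusted p = 0.772). Its value was identical on 4 arrays of both groups, so its narrow interval rests in part on ties. The sign of both differences turned under other settings, Vwf to -0.07 without uninjured array 1 and Egfl7 to -0.01 without blastema array 2, and to -0.32 and -0.33 under reference gene scaling.

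Egfl7 also hosts a microRNA gene, Mir126a, known for its role in vessel integrity. A separate probe set lists both symbols and was left out of the gene table for that reason. Its uninjured mean was 3.12 ± 0.22 (SD, n = 4) and its blastema mean 3.17 ± 0.12 (SD, n = 3), both far below the background proxy. The mature strand held by RefSeq is shown with its seed, bases 2 to 8, in capitals, because it is encoded within one of the 9 genes.

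mmu-miR-126a-3p, chr2:26591402-26591423, plus strand: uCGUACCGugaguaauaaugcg

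Several of these values are exactly equal on different arrays. Among the 9 genes, 4 had such ties (to 1e-08): Egfl7 on 4 arrays at 6.50, Pecam1 on 3, and Esam and Vwf on 2 each. Ties occurred in 52.9% of all genes and in 0.842% of the genes that passed the test. Neither Aplnr nor Cdh5 had one. A tied value carries no order between its arrays, so the contact of the Pecam1 groups is a tie and not a crossing.

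**Figure D2:**
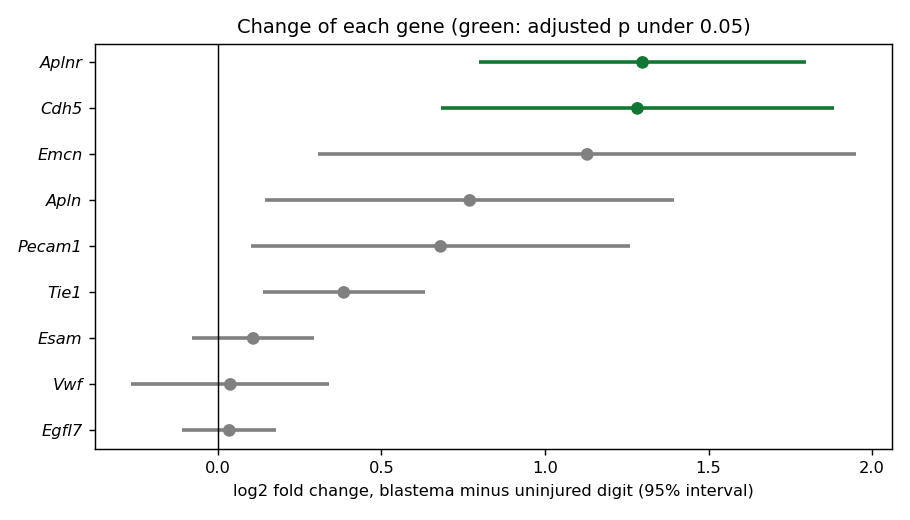
Log2 fold change of each gene, blastema minus uninjured digit, with its 95% interval from limma; green marks an adjusted p under 0.05. Aplnr (1.30) and Cdh5 (1.28) stand at the top, the intervals of Emcn, Apln, Pecam1 and Tie1 lie above 0 without passing after adjustment, and those of Esam, Vwf and Egfl7 include 0.

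The 9 genes also varied among the replicates of a group. Blastema array 1 was the lowest blastema array for 7 of the 9 (for Egfl7 in a tie), and uninjured array 1 the lowest of all 7 arrays for 4 of them (Cdh5, Pecam1, Emcn and Vwf). After each gene was centred on its own mean, the average of the 9 came to -0.46, -0.08, -0.33 and -0.22 on uninjured arrays 1 to 4. On blastema arrays 1 to 3 it came to 0.14, 0.48 and 0.47. Arrays have no read depth, and their number limits the precision.

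The count of rises among the 9 genes was unstable. It was 1 when uninjured array 1, uninjured array 3 or blastema array 2 was omitted, 0 without blastema array 3, 3 without uninjured array 4, and 2 without uninjured array 2 or blastema array 1. Without both arrays numbered 1 it was 4, namely Aplnr, Cdh5, Pecam1 and Emcn. The share of all genes that rose moved as well. It was 4.12%, 3.07%, 2.82% and 2.97% on omitting uninjured arrays 1 to 4. On omitting blastema arrays 1 to 3 it was 5.8%, 2.06% and 2.16%, and without both arrays numbered 1 it was 5.25%.

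Other genes known from endothelium at large, a list of receptors, transcription factors and surface proteins, included both rises and small differences. Of the 29 on the arrays 7 rose, beside 4.98% of all genes, 0 fell and the median was 0.28. The 7 were S1pr1, Plvap, Eng, Cd93, Kdr, Sox18 and Ecscr, with log2 fold changes of 0.57 to 1.28. S1pr1, the sphingosine-1-phosphate receptor of endothelium (1.28 ± 0.22 SE, limma adjusted p = 0.0138), Plvap, a protein of capillary fenestrae (1.19 ± 0.12, 0.00255), and Eng, a TGF-beta co-receptor (1.08 ± 0.25, 0.0377), had the largest rises. Kdr, the main VEGF receptor (0.82, 0.0460), Cd93 (1.06, 0.0440), Sox18 (0.76, 0.0494) and Ecscr (0.57, 0.00807) make up the 7 and were picked out once their values were known. Sox18 was under the background proxy on all 4 uninjured arrays and on blastema array 1, so the size of its change is uncertain.

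The others ranged from -0.10 to 0.97. Cldn5, a tight junction gene of endothelium (-0.10, limma adjusted p = 0.457), and Ramp2, part of the adrenomedullin receptor (-0.04, adjusted p = 0.662), both picked out once their values were known, did not pass. Ramp2 held one identical value on all 4 uninjured arrays. Cldn5 was under the background proxy on all 7 arrays. Plvap passed in every omission of 1 array. S1pr1 was lost without blastema array 2 (0.0657) or 3 (0.0547), and Eng in all omissions but that of blastema array 1 (0.0547 to 0.144). The count of 7 became 4, 3, 3 and 3 on omitting uninjured arrays 1 to 4, and 11, 2 and 2 on omitting blastema arrays 1 to 3.

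**Figure D3:**
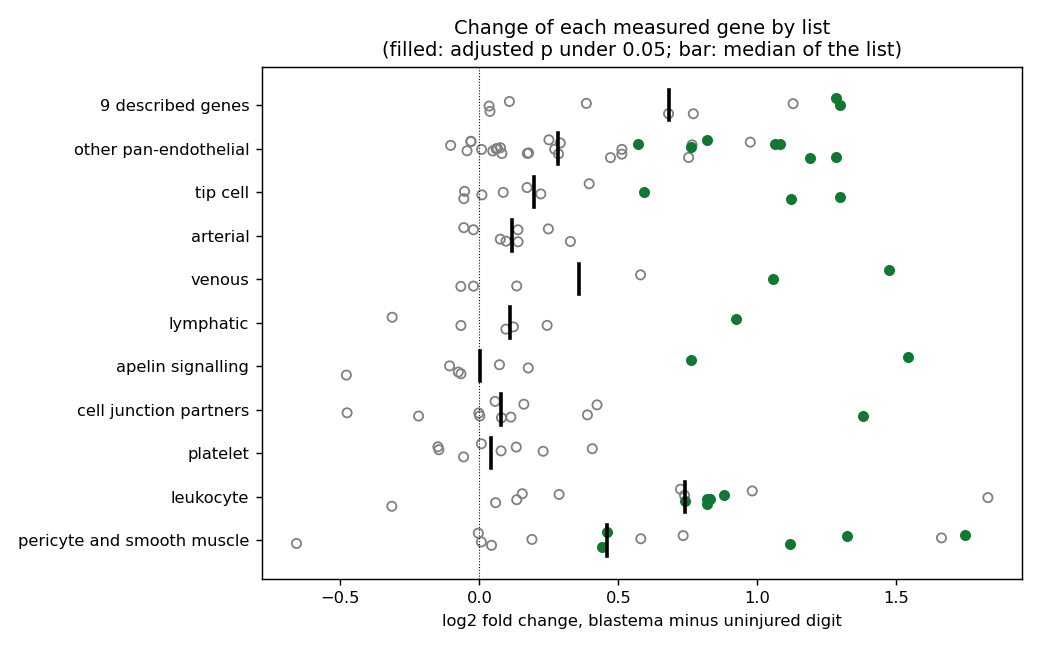
Log2 fold change, blastema minus uninjured digit, of every measured gene of each list; filled points passed at an adjusted p of 0.05, open points did not, and the black bar is the median of the list. Medians of the 9 described genes (0.68), the leukocyte genes (0.74) and the pericyte and smooth muscle genes (0.46) lie above those of the arterial (0.12), lymphatic (0.11) and platelet genes (0.04).

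Each of the 9 genes was then read against the median of these 29 genes, each centred on its own mean, on the same array. This takes the same amount from all 9 differences, so each had to fall and the spacing between genes could not change. Of the 9, 6 differences were smaller and 3 turned negative. That of Aplnr became 0.93, of Cdh5 0.91, of Emcn 0.76, of Apln 0.40, of Pecam1 0.31 and of Tie1 0.01. Esam, Vwf and Egfl7 came to -0.26, -0.33 and -0.34, which are larger in size than their differences as deposited. These values describe a shift common to all 9 genes and carry no test.

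Genes of vessel subtypes were read from short lists, to be set beside the 4.98% of all genes that rose and the 4.66% that fell. Of 10 tip cell genes 3 rose and 0 fell (median 0.20): Plxnd1, a semaphorin receptor (1.30 ± 0.16 SE, limma adjusted p = 0.00508), Nid2, a basement membrane protein (1.12 ± 0.20, 0.0159), and Cxcr4, a chemokine receptor (0.59 ± 0.10, 0.0138). Of the 10 tip cell genes, 6 were above the proxy in a group. Esm1 (-0.05, 0.768), Kcne3 (0.01, 0.979), Angpt2 (0.40, 0.0946) and Dll4 (0.22, 0.0719) did not pass and had group means under the proxy. They were picked out once their values were known. Esm1, Angpt2 and Dll4 were above the proxy on no array, and Dll4 had every blastema value above every uninjured value. Which cells gave the 3 rises was not tested. Nid2 was lost when uninjured array 2 (0.0550), uninjured array 3 (0.0502) or blastema array 2 (0.0687) was omitted, and Cxcr4 without blastema array 2 (0.0563) or 3 (0.0655). The count became 4, 2, 2 and 3 on omitting uninjured arrays 1 to 4, and 3, 1 and 2 on omitting blastema arrays 1 to 3.

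Of 8 arterial genes 0 rose and 0 fell (median 0.12), and the member with the smallest p was the connexin gene Gja5 (0.25, limma adjusted p = 0.208). Without blastema array 1, 1 arterial gene rose. Of 6 venous genes 2 rose, the adhesion receptor gene Vcam1 (1.48 ± 0.20 SE, adjusted p = 0.00672) and the neuropilin gene Nrp2 (1.06 ± 0.18, 0.0145), and the median was 0.36. Both are also expressed outside veins. Nrp2 was lost when uninjured array 2 (0.0520), blastema array 2 (0.0575) or blastema array 3 (0.0715) was omitted. Of 6 lymphatic genes 1 rose, Pdpn (0.92 ± 0.14, 0.00856), which is also made by fibroblasts and bone cells, and 1 passed as lower without uninjured array 1. The lymphatic transcription factor gene Prox1 (-0.07, 0.782), picked out once its value was known, was under the proxy on all arrays.

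Markers of other cells were measured beside these genes, because Pecam1 is also made by leukocytes and platelets and Vwf by platelets. Of all genes, 4.98% rose and 4.66% fell. Of 14 leukocyte genes 5 rose and 0 fell (median 0.74), with list means of 5.69 to 5.82 on uninjured arrays and 6.01 to 6.57 on blastema arrays, and 12 of the 14 were above the proxy in a group. Itgb2, the shared chain of leukocyte integrins (0.88 ± 0.19 SE, limma adjusted p = 0.0283), the lysosomal gene Laptm5 (0.83 ± 0.16, 0.0191) and the myeloid transcription factor gene Spi1 (0.82 ± 0.09, 0.00350) had the largest changes of the 5 that passed. The neutrophil genes S100a8 (1.83 ± 0.58, 0.101) and S100a9 (0.98 ± 0.49, 0.267), picked out once their values were known, had larger differences with overlapping groups and did not pass. Ptprc, the gene of CD45, did not pass (0.74, 0.0812) and was picked out once its value was known. Their part in the difference of Pecam1 was not tested.

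The leukocyte count became 4, 4, 1 and 1 on omitting uninjured arrays 1 to 4, and 8, 1 and 1 on omitting blastema arrays 1 to 3. Itgb2 kept its call in 2 of the 7 omissions (adjusted p of 0.108 and 0.116 without blastema arrays 2 and 3) and Laptm5 in 3 (0.0800 and 0.0823), while Spi1 kept it in all 7. Of 8 platelet genes 0 rose and 0 fell (median 0.04). Their list means were 4.98 to 5.12 on uninjured arrays and 5.06 to 5.10 on blastema arrays, 3 of the 8 were above the proxy in a group, and the member with the smallest p was the collagen receptor gene Gp6 (0.41, adjusted p = 0.0518), which passed without uninjured array 1 (0.0423). Only 1 of the 10 erythroid genes was measured, Slc4a1 (0.02, adjusted p = 0.947), and both of its group means were under the proxy.

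Pericytes and smooth muscle cells wrap the endothelium. Of 13 such genes 5 rose (4.98% of all genes did) and 0 fell (median 0.46). List means were 6.92 to 7.40 on uninjured arrays and 7.56 to 7.91 on blastema arrays. Pdgfrb, the PDGF receptor of pericytes (1.75 ± 0.20 SE, limma adjusted p = 0.00404), the adhesion molecule gene Mcam (1.32 ± 0.18, 0.00672), which endothelium also makes, and the channel subunit gene Abcc9 (1.12 ± 0.19, 0.0137) had the largest changes of the 5 that passed. Acta2, the smooth muscle actin gene, picked out once its value was known, had a larger difference than Mcam and groups that did not overlap, and did not pass (1.66 ± 0.44, 0.0591). Myh11, the smooth muscle myosin gene, was lower in the blastema with overlapping groups and did not pass (-0.66 ± 0.33, 0.269). Notch3 (-0.0039, 0.979) and Kcnj8 (0.04, 0.853) had nearly equal group means. These genes were also picked out once their values were known. Of the 13 differences 11 were positive. Abcc9 was lost without blastema array 2 (0.0620) or 3 (0.0539). The count became 5, 3, 3 and 4 on omitting uninjured arrays 1 to 4, and 4, 2 and 2 on omitting blastema arrays 1 to 3.

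The genes whose profile over the 7 arrays was closest to those of Aplnr and Cdh5 were sought among 16926 named genes. Likeness was the root mean square distance, on the log2 scale, between profiles that were each centred on their own mean. Nearest to Aplnr were Lsp1 (0.14), a leukocyte cytoskeletal gene, Car3 (0.14), a carbonic anhydrase gene, Fcer1g (0.14), an Fc receptor chain gene, Kctd12 (0.17) and Serpinh1 (0.17), a collagen chaperone gene, against a median distance of 0.71. Nearest to Cdh5 were B4galt5 (0.10), Ccdc88a (0.11), Sod3 (0.12), Lipa (0.13) and Parp8 (0.14), against a median of 0.73. Of the other described genes, Emcn was the nearest to Cdh5 (0.26), and Cdh5 was the nearest to Aplnr (0.33). Genes that differ between the groups by a like amount are close on this measure.

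The scaling of the arrays turned the sign of the smaller differences. Over all genes, 51.7% of calls were higher in the blastema as deposited, and 4.68% after each array was shifted by the mean of 9 reference genes, which moved the median of all genes from -0.01 to -0.37. Under that scaling Aplnr (0.94), Cdh5 (0.92) and Emcn (0.77) were the members higher in the blastema, and Vwf (-0.32) and Egfl7 (-0.33) passed as lower. Of all 22180 genes, 11201 passed as lower and 550 (2.48%) as higher, so a lower call sets no gene apart there. The 29 other endothelial genes then counted 6 higher and 4 lower, with a median of -0.08. The medians of the tip cell (-0.17), arterial (-0.24), venous (-0.0043), lymphatic (-0.25), apelin signalling (-0.36), junction (-0.28) and platelet lists (-0.32) turned negative. Those of the leukocyte (0.38) and pericyte and smooth muscle lists (0.10) stayed positive. A shift of whole arrays moves all genes alike. Differences relative to the median of all genes therefore cannot change between the scalings (Aplnr 1.30, Vwf 0.04).

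**Figure D4:**
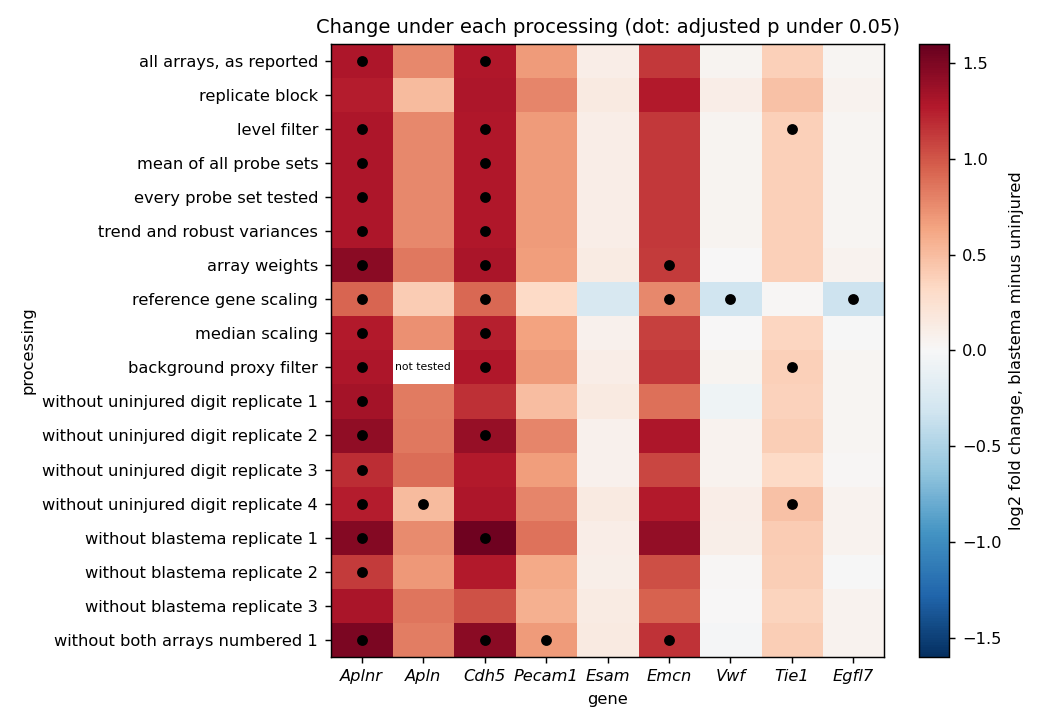
Log2 fold change, blastema minus uninjured digit, of the 9 genes (columns) under each processing of the values (rows), from blue (lower in blastema) to red (higher); a dot marks an adjusted p under 0.05, and Apln was not tested under the background proxy filter. Aplnr and Cdh5 are red in every row. Dots for Aplnr are missing under the replicate block and without blastema array 3. Cdh5 has no dot under the replicate block and has dots in only 2 of the 7 rows that omit 1 array. Vwf and Egfl7 are near white except under reference gene scaling.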

How the data were processed

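Expression was measured on 7 arrays, 4 of uninjured digit and 3 of blastema, grouped by the labels. The authors deposited log2 values from RMA, run with oligo in R per the submitters' processing notes. No version or setting is given in what was used here. RMA equalises arrays, so a global change in RNA content would not show.

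Of 41345 probe sets, 23521 list 1 symbol in the platform annotation, 1814 several and 16010 none. For each of 22180 genes the brightest single-symbol probe set was used, by its mean level. Entrez identifiers of 21994 genes were found in RefSeq. Groups were compared by limma 3.58.1 in R 4.3.3 (lmFit and eBayes, no covariate, no filter). Two-sided p-values received Benjamini-Hochberg adjustment across the table, with a threshold of 0.05. This step was tested on simulated data.

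The 9 genes, the lists and the alternatives were chosen with earlier results of these data known. Named genes are the 9, the 3 called genes of each list with the largest change (or the gene with the smallest p), and the 5 nearest in profile to Aplnr and to Cdh5, predicted genes, clones, olfactory and vomeronasal receptors and small RNAs left out. List members with no single-symbol probe set were not analysed here. The alternatives changed the replicate block, filters on level (30th percentile, background proxy), handling of probe sets, variance model, array weights, scaling and the arrays included. Plots used matplotlib 3.10.9 under Python 3.11.15.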

Additional observations from a re-analysis of the deposited data

Results flagged for a closer look

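In the group of 4 uninjured digits, 45 genes were screened for a single array far from the other 3, and 2 were found, where chance gives about 1 in 20 groups. Apln on uninjured array 4 lay at 3.95, with the others at 4.91 to 5.09, and all 4 were below the background proxy. Alpl, a gene of the bone marker list, lay at 6.02 on uninjured array 3, with the others at 6.93 to 6.95.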

How the results depend on the processing

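The direction of Aplnr, Apln, Cdh5, Pecam1, Emcn and Tie1 was upward under every alternative run, apart from Apln under the background proxy filter, where it was not tested. With the replicate block, 295 genes were higher and 304 lower in place of 1105 and 1034, and Aplnr (1.25, adjusted p = 0.0514) and Cdh5 (1.30, 0.0586) did not pass. Uninjured array 4 has no blastema array of its number, so differences under the block rest on the arrays numbered 1 to 3. That of Apln was 0.51, as when uninjured array 4 is omitted. Deviations from the group means correlated at 0.29, 0.15 and -0.07 for numbers 1, 2 and 3. The first and second values were the highest of the 12 pairs, and blastema array 3 correlated best with uninjured array 4 (0.14), so the pairing of the arrays is not settled. With the block 1 of the other endothelial genes passed, in place of 7. Scaling to the 9 reference genes gave 550 higher and 11201 lower genes, 4.68% of calls higher in place of 51.7%, and moved the median of all genes to -0.37. Of those 9, B2m (1.34), Gusb (0.89) and Gapdh (0.31) themselves rose. Under it Esam was -0.25, Vwf -0.32 and Egfl7 -0.33 (adjusted p = 0.138, 0.0411 and 0.0425), Gja5 -0.11 and Slc4a1 -0.35, and Emcn passed (0.77, 0.0285). Relative to the median of all genes, Vwf and Egfl7 were 0.04 and 0.04 under both scalings, as a shift of whole arrays must give. Median scaling gave Egfl7 -0.00039 and Slc4a1 -0.019. Emcn passed with array weights (1.12, 0.0463), where Slc4a1 was -0.035. Tie1 passed with the level filter (0.38, 0.0438) and the background proxy filter (0.38, 0.0374). Without both arrays numbered 1, Pecam1 (0.68) and Emcn (1.16) passed, and Vwf was -0.021 and Slc4a1 -0.069. Omitting 1 array at a time gave 457 to 1286 higher and 365 to 1009 lower genes. Log2 fold changes then ranged over 1.12 to 1.47 for Aplnr, 0.51 to 0.89 for Apln, 1.02 to 1.56 for Cdh5, -0.072 to 0.11 for Vwf, 0.31 to 0.46 for Tie1, -0.0053 to 0.055 for Egfl7 and -0.10 to 0.12 for Slc4a1. The causes of these changes were not tested. Low signal limits Apln, Esam, Vwf, Sox18 and the uninjured level of Aplnr, and tied values limit Egfl7.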
